A study of Arabidopsis thaliana with 39 samples.

Results

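The small RNA reads of the Arabidopsis T-DNA line SAIL_232 that map to its plasmid pCSA110 were compared by length, because they fall into the sizes of plant siRNAs and a broad tail of longer fragments. All 3175 reads of the library mapped to pCSA110 were used, of 28781 plasmid-mapped reads in both small RNA libraries of the study. Below, reads and shares of the library refer to these mapped reads only, since the total size of the library is not given here. Of the 3175 reads, 1583 of 21 to 24 nt formed the siRNA sizes and 1167 of 25 to 50 nt the longer fragments. The 425 reads of 17 to 20 nt formed the shorter ones. The split used read length only, and strand, position and read ends were compared between the classes.

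SAIL_232 is a Columbia-based insertion line made with the T-DNA of pCSA110 and carries several insertions of it. The T-DNA holds bar under the mannopine synthase promoter and GUS under the LAT52 promoter of tomato pollen. Small RNA came from whole rosette leaves of pooled segregating plants, with no treatment in the labels and growth at 21 °C with 16 h of light. The methods of the paper give a slightly cooler room and shorter days. The plants thus differed in the insertions they carried, the number of copies of each element in the pool is not known, and 1 library was made, so that no value has a replicate. The other small RNA library, from SALK_059379 with the pROK2 T-DNA, was grown and labelled in the same way and is used only beside the last result. No small RNA library without a T-DNA is analysed here.

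In plants, Dicer-like enzymes cut double-stranded RNA into siRNA duplexes with short 3′ overhangs. The 21 and 22 nt siRNAs act mainly on transcripts, and the 24 nt siRNAs guide RNA-directed DNA methylation. Fragments from the breakdown of a transcript have no fixed length and come from the strand that is transcribed. Argonaute proteins sort siRNAs in part by their 5′ base: in Arabidopsis AGO1 prefers U, AGO2 and AGO4 prefer A, and AGO5 prefers C.

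At 21 nt the library held 750 reads (95% interval 697 to 806) and at 24 nt 401 reads (363 to 442), more than at any other length. The lengths between them had 267 reads (22 nt, with an interval of 236 to 301) and 165 reads (23 nt, with 141 to 192). Above these, the counts dropped to 94 reads at 25 nt (76.0 to 115) and stayed between 58 and 81 reads at every length from 26 to 34 nt, without a peak. Each length from 35 to 41 nt had 34 to 52 reads, and each length above that 1 to 30. Below the siRNA sizes, reads increased with length, with 62 at 17 nt and 186 at 20 nt. The gel slice for this library was cut at 15 to 35 nt, yet 413 reads (13.0%, 11.9 to 14.2) were longer than 35 nt. Intervals are exact Poisson intervals for counts and Clopper-Pearson intervals for shares, and they cover counting error only, since reads made by PCR are not independent molecules.

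**Figure D1:**
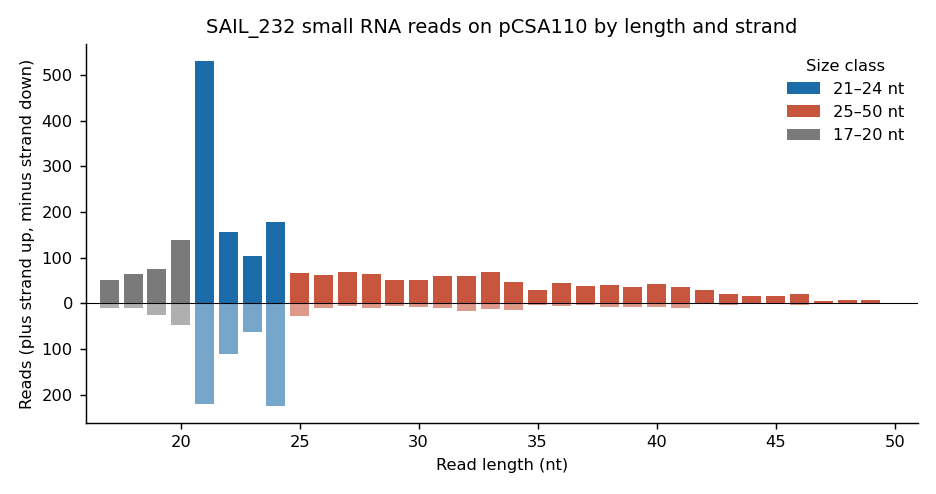
Reads of SAIL_232 on pCSA110 at each length from 17 to 50 nt, with plus-strand reads drawn upwards and minus-strand reads downwards, coloured by size class. The 21 nt bar has 530 plus and 220 minus reads and the 24 nt bar 177 plus and 224 minus reads, whereas the lengths above 25 nt have few minus-strand reads.

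By reads, the siRNA sizes made up 49.9% (48.1 to 51.6) of the library, the 25 to 50 nt class 36.8% (35.1 to 38.5) and the 17 to 20 nt class 13.4% (12.2 to 14.6). This order rests on repeated reads. With identical reads (same start, end and strand) counted once, 707 reads of 21 to 24 nt (38.4%, 36.2 to 40.7), 842 of 25 to 50 nt (45.8%, 43.5 to 48.1) and 291 of 17 to 20 nt were left. A siRNA-sized read was thus seen 2.24 times on average, a longer read 1.39 times and a shorter read 1.46 times.

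The classes overlapped along the plasmid but differed in the share each element held. The bar coding region, which encodes a phosphinothricin acetyltransferase and makes the plant tolerant to the herbicide glufosinate, spans 828 to 1379 bp on the plus strand (183 amino acids). Its siRNA-sized reads numbered 426 (387 to 468), its longer reads 681 (631 to 734) and its shorter reads 206 (179 to 236). As a share of each class, bar held 26.9% (24.7 to 29.2) of the siRNA-sized reads, 58.4% (55.5 to 61.2) of the longer reads and 48.5% of the shorter reads. There were 0.626 siRNA-sized reads for each longer read on bar (0.553 to 0.707), so that longer reads outnumbered the siRNA sizes. Of the longer reads with a midpoint in bar, some reached beyond it, and 51.2% (48.2 to 54.1) of the class lay wholly inside.

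The mannopine synthase promoter lies in the 558 bp that separate the left border from bar (270 to 827 bp), called the promoter stretch. Here 509 reads of 21 to 24 nt, 118 of 25 to 50 nt and 50 of 17 to 20 nt were counted, a ratio of 4.31 (3.52 to 5.32) siRNA-sized reads to each longer one. This excess lay in the part next to the left border (270 to 548 bp, the left part), with 456 siRNA-sized, 68 longer and 35 shorter reads, a ratio of 6.71 (5.19 to 8.78). In the equally long part next to bar (549 to 827 bp, the right part), 53 siRNA-sized and 50 longer reads were counted, a ratio of 1.06 (0.707 to 1.59). The promoter stretch thus held an siRNA-rich left part, and a right part in which neither class exceeded the other beyond counting error. With identical reads counted once the excess was smaller, with 122 siRNA-sized and 51 longer reads in the left part and 33 and 40 in the right part.

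The 3771 bp that separate bar from GUS (1380 to 5150 bp) were also divided. It holds the LAT52 promoter in front of GUS and other vector sequence, and the 1000 nt upstream of GUS (4151 to 5150 bp) were set against the rest. That interval was chosen with earlier results of these reads known. In it, 313 reads of 21 to 24 nt stood beside 65 of 25 to 50 nt and 27 of 17 to 20 nt, a ratio of 4.82 (3.68 to 6.39), whereas the rest held 229, 231 and 104 reads, a ratio of 0.991 (0.822 to 1.20). With identical reads counted once, 122 siRNA-sized and 47 longer reads were left in the 1000 nt, and 155 and 176 in the rest. The rest includes the reading frame of bla (2465 to 3325 bp, plus strand, 286 amino acids), the bacterial β-lactamase used as an ampicillin marker. There, 15 reads of 21 to 24 nt, 50 of 25 to 50 nt and 13 of 17 to 20 nt were counted, a ratio of 0.300 (0.156 to 0.543), below 1 as on bar. It had 58.1 longer reads per kb (43.1 to 76.6) against 1234 per kb on bar (1143 to 1330).

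The GUS coding region, which encodes the β-glucuronidase reporter (5151 to 6962 bp, plus strand, 603 amino acids), held few reads of any size, with 18 of 21 to 24 nt, 19 of 25 to 50 nt and 21 of 17 to 20 nt. Its density of siRNA-sized reads was 9.93 per kb (5.89 to 15.7), against 912 per kb (835 to 995) on the promoter stretch of bar and 772 per kb (700 to 849) on bar. From the end of GUS up to the right border repeat (6963 to 7399 bp), 60 reads of 21 to 24 nt, 30 of 25 to 50 nt and 10 of 17 to 20 nt were counted. The left border repeat (245 to 269 bp) held 8, 4 and 0 reads of these classes, and the right border repeat (7400 to 7424 bp) held 0 in each class, a count that allows up to 3 reads. The 361 bp of vector backbone outside the borders held 20, 19 and 7 reads.

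**Figure D2:**
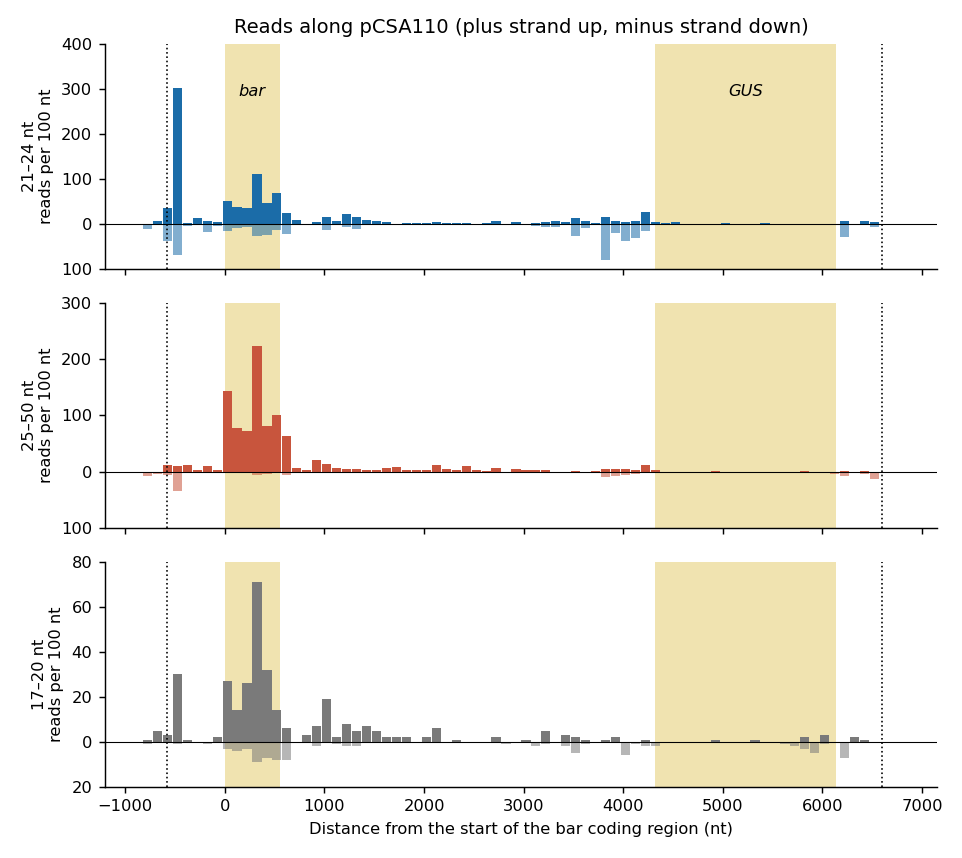
Reads per 100 nt bin along pCSA110 for the 21–24, 25–50 and 17–20 nt classes, with plus-strand reads upwards and minus-strand reads downwards, as distance from the start of bar; shading marks bar and GUS and dotted lines the outer ends of the border repeats. The highest siRNA-size bin lies in the promoter stretch (373 reads), the highest bin of the longer and of the shorter reads inside bar (231 and 80 reads), and the vertical scales differ between panels.

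Over 76 bins of 100 nt, the siRNA-sized and the longer reads had a Spearman correlation of 0.72 and a Pearson correlation of 0.50. For the shorter and the longer reads these were 0.52 (Spearman) and 0.92 (Pearson), and for the shorter and the siRNA-sized reads 0.62 and 0.61, so that the order of these pairs turns between the coefficients. The bins share 1 library and neighbouring bins are not independent, so these values are a description. The highest siRNA-size bin (301 to 400 bp, in the promoter stretch) held 373 siRNA-sized, 45 longer and 31 shorter reads. The highest bin of the longer reads (1101 to 1200 bp, in bar) held 138, 231 and 80 reads of these classes. Reads of siRNA size were present in 59 bins and on both strands in 40 of these, longer reads in 63 bins and on both strands in 28.

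Strand differed between the classes over the whole plasmid. Of the siRNA-sized reads, 965 lay on the plus strand and 618 on the minus strand (61.0% plus, 58.5 to 63.4). Of the longer reads, 987 were plus and 180 minus (84.6%, 82.4 to 86.6), and of the shorter reads 331 were plus and 94 minus (77.9%, 73.6 to 81.7). Within the siRNA sizes, 70.7% (67.3 to 73.9) of the 21 nt reads and 44.1% (39.2 to 49.2) of the 24 nt reads were plus. The excess of minus-strand 24 nt reads rests on 1 read: without the 63 copies of the most frequent 24 nt read, 52.4% (46.9 to 57.8) were plus.

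On bar, the siRNA-sized reads had 329 sense and 97 antisense reads (77.2% sense, 72.9 to 81.1). The longer reads were almost all sense, with 663 sense and 18 antisense reads (97.4%, 95.9 to 98.4), and the shorter reads 172 and 34 (83.5%, 77.7 to 88.3). With identical reads counted once the sense share was 77.0% (70.5 to 82.6) for the siRNA sizes and 97.2% (95.3 to 98.5) for the longer reads, so that the difference between these classes did not rest on repeated reads. Reads of 21 nt took a larger share of the antisense than of the sense reads. Of all 149 antisense reads on bar, 77 had 21 nt (51.7%, 43.4 to 59.9) and 5 had 24 nt, whereas of the 1164 sense reads 167 had 21 nt (14.3%, 12.4 to 16.5) and 53 had 24 nt. With identical reads counted once, 32 of 85 antisense reads (37.6%, 27.4 to 48.8) and 61 of 710 sense reads (8.59%, 6.64 to 10.9) had 21 nt, and 1 antisense read alone (1179 to 1199 bp) had 21 copies. The 21 nt reads on bar were 68.4% sense (62.2 to 74.2), while the 23 nt reads (94.8%, 85.6 to 98.9) and the 24 nt reads (91.4%, 81.0 to 97.1) came close to the longer fragments in their strand.

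**Figure D3:**
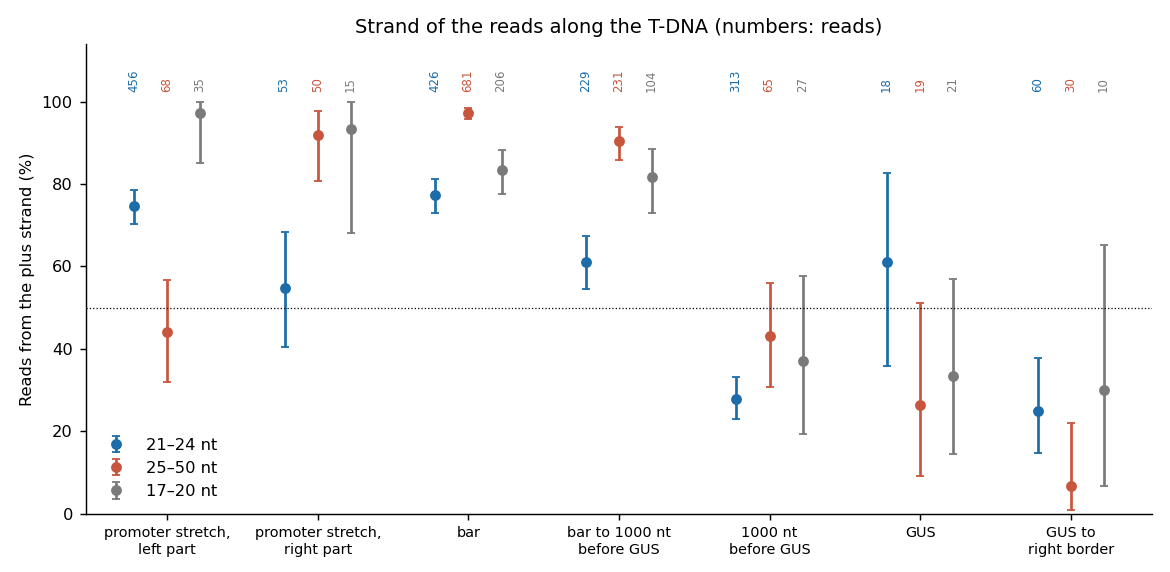
Share of plus-strand reads in each stretch of the T-DNA for the 3 size classes (points) with exact 95% binomial intervals (bars); the numbers above give the reads behind each point and the dotted line marks 50%. On bar the siRNA-sized reads lie at 77.2% and the longer reads at 97.4%, and in the 1000 nt before GUS they lie at 27.8% and 43.1%, with intervals that overlap.

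Away from bar, the strand of the longer reads changed with position. In the right part of the promoter stretch, 29 of 53 siRNA-sized and 46 of 50 longer reads were plus. Between bar and the 1000 nt upstream of GUS, 140 of 229 siRNA-sized reads (61.1%, 54.5 to 67.5) and 209 of 231 longer reads (90.5%, 85.9 to 93.9) were plus. On the bla frame, 48 of 50 longer reads were plus. The longer reads did not keep this strand everywhere: in the left part of the promoter stretch 30 of 68 were plus (44.1%, 32.1 to 56.7), in the 1000 nt upstream of GUS 28 of 65 (43.1%, 30.8 to 56.0), and between GUS and the right border 2 of 30 (6.67%, 0.818 to 22.1). In the first of these places, where the interval of the longer reads includes 50%, the siRNA-sized reads were mostly plus, with 340 of 456 (74.6%, 70.3 to 78.5). With identical reads counted once, 76 of 122 siRNA-sized reads there were plus (62.3%, 53.1 to 70.9). Upstream of GUS they were mostly minus, with 87 of 313 plus (27.8%, 22.9 to 33.1), and without the 63 copies of 1 read 34.8% (28.9 to 41.1) of the other 250 were plus.

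Many longer plus-strand reads began just before the start of bar. Within the 20 nt before the first base of bar, 31 siRNA-sized, 89 longer and 13 shorter reads had their 5′ ends. In the 80 nt before that interval, 0 siRNA-sized reads (up to 3), 17 longer (9.90 to 27.2) and 2 shorter reads started. Per kb, the longer reads thus had 4450 5′ ends in the 20 nt before bar and 212.5 in the 80 nt before these, beside 1081.5 within bar. Of the plus-strand reads of each class, 3.21% of the siRNA sizes, 10.4% (8.60 to 12.5) of the longer and 3.93% of the shorter reads crossed the first base of bar. Past the end of bar, 3′ ends of longer plus-strand reads numbered 55 in the first 50 nt, 22 in the next 50 nt and 11 in the 100 nt after these. Those of siRNA-sized reads numbered 25, 0 and 9 in the same intervals.

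**Figure D4:**
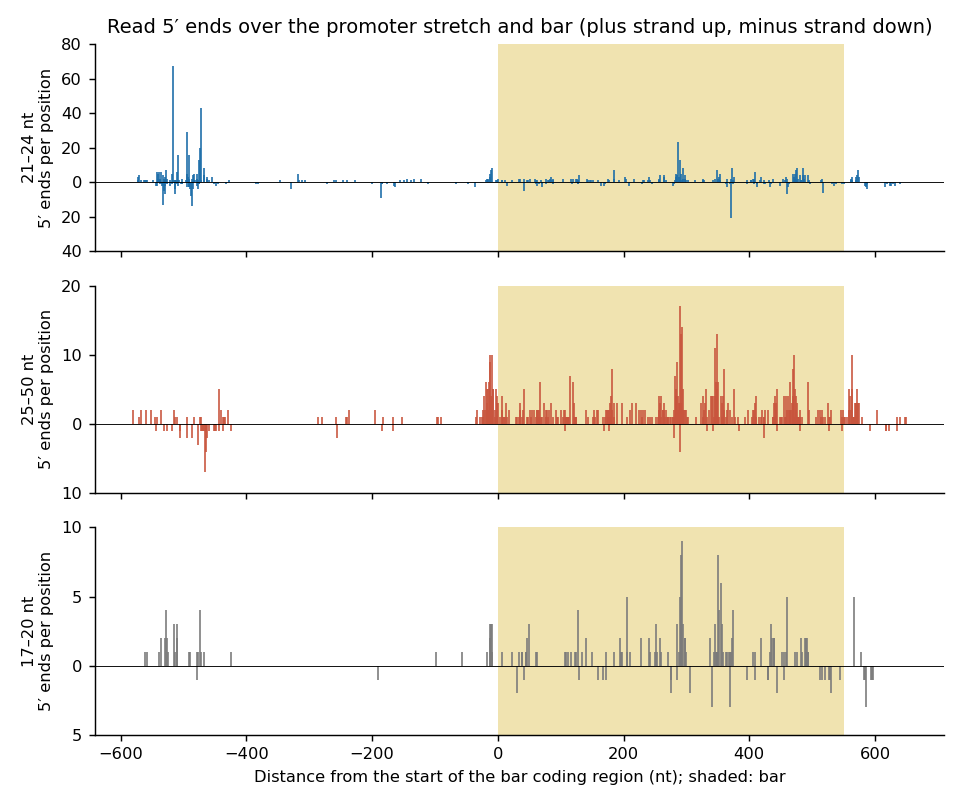
Number of read 5′ ends at each position over the promoter stretch and bar (shaded), as distance from the start of bar, for the 3 size classes, with plus-strand ends upwards and minus-strand ends downwards. The siRNA-size ends form a few tall piles in the promoter stretch, up to 67 reads, whereas the longer reads start at many positions of bar, with up to 17 reads at one, and at a cluster just before it.

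With every copy counted, 5′ ends were more repeated among the siRNA sizes than among the longer reads. The 10 most frequent 5′ ends held 19.8% (17.8 to 21.8) of the siRNA-sized reads, 10.1% (8.44 to 12.0) of the longer reads and 14.4% (11.2 to 18.1) of the shorter reads. With identical reads counted once the order turned, with 3.96% of the siRNA-sized and 6.77% of the longer reads. Counted in this way, a 5′ end can hold only as many reads as its class has lengths. The siRNA sizes have 4 lengths and the longer class many more, so the turned order is set by the widths of the classes. At an equal depth of 200 reads, the expected number of different 5′ ends was 146 for the siRNA sizes, 164 for the longer and 153 for the shorter reads, and of different 3′ ends 141, 156 and 145. Different reads numbered 152, 187 and 161 at that depth. A read seen only once made up 26.8% (24.6 to 29.0) of the siRNA-sized, 52.4% (49.5 to 55.3) of the longer and 50.4% (45.5 to 55.2) of the shorter reads.

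The reads that shared a 5′ end also differed in how fixed their length was. At 5′ ends with at least 5 reads of a class, 91.0% (88.6 to 93.0) of the 699 siRNA-sized reads had the commonest length of their end, against 41.7% (36.2 to 47.2) of the 324 longer reads. On bar alone the shares were 87.9% (82.0 to 92.3) and 41.5% (35.3 to 47.9). The longer class allows more lengths, so part of this gap lies in its definition. The shorter class, which allows as many lengths as the siRNA sizes, had 91.2% (80.7 to 97.1) of 57 reads at the commonest length.

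The most frequent 5′ end of the siRNA sizes was at 312 bp on the plus strand, in the promoter stretch, with 67 reads (51.9 to 85.1), of which 65 had 21 nt. The second was at 4667 bp on the minus strand, in the 1000 nt upstream of GUS, with 63 reads (48.4 to 80.6), all of 24 nt. The next were at 355 bp (43 reads), 333 bp (29) and 1114 bp (23), all on the plus strand and nearly all of 21 nt. Hardly any longer or shorter read shared these ends: together, 3 longer reads and 1 shorter read started at these 5 positions. Those at 312, 333 and 355 bp lie in the promoter stretch and held 139 of its 509 siRNA-sized reads. Without them the ratio of siRNA-sized to longer reads there was 3.14 (2.54 to 3.89), and without the end at 4667 bp that of the 1000 nt upstream of GUS was 3.85 (2.92 to 5.13).

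The longer reads had their 5 most frequent 5′ ends inside bar on the plus strand, at 1118 bp (17 reads), 1121 bp (14), 1120 bp (13), 1176 bp (13) and 1174 bp (11). Reads from these ends had between 3 and 6 different lengths. Their 3′ ends piled up more: 30 longer reads ended at 1151 bp, with 13 different lengths, 19 at 1214 bp and 17 at 846 bp. Of the 5 most frequent 5′ ends of the shorter reads, 4 lay in the same part of bar, at 1121 bp (9 reads), 1120 bp (8), 1178 bp (8) and 1183 bp (6), and the other at 4816 bp on the minus strand (6). At 1120 and 1121 bp the longer and shorter reads shared their starts, while the siRNA sizes had 0 and 1 reads there. The other leading ends of the longer reads differed in this. The siRNA-sized and shorter reads numbered 1 and 5 at 1118 bp, 7 and 1 at 1176 bp, and 2 and 0 at 1174 bp.

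Some of the repeated 21 nt reads of the promoter stretch followed one another. The read from 312 to 332 bp (65 copies) was directly followed by that from 333 to 353 bp (29 copies), and this by reads from 354 to 374 bp (20 copies) and from 355 to 375 bp (43 copies). Among plus-strand reads of 21 and 22 nt in the stretch, pairs of 5′ ends 21 nt apart were the most numerous of the 51 distances from 15 to 65 nt, with 22 pairs of positions against a median of 12. The lead over nearby distances was small, with 21 pairs of positions at 24 nt and 19 each at 18, 22 and 23 nt. Counted as pairs of reads, the distance of 43 nt came first (3068) and that of 21 nt second (2936, median 348). Such a count multiplies the copies at both positions. The piles at 312 and 355 bp lie 43 nt apart and those at 312 and 333 bp 21 nt apart, so these ranks rest largely on the reads named above. The distance of 42 nt had 11 pairs of positions, the 27th of 51, and repeated reads also lay between these, at 319 to 339 bp (16 copies), 336 to 356 bp (16) and 353 to 373 bp (10). On the minus strand 21 nt had 7 pairs of positions against a median of 3, tied for the highest count with 36 nt, but was the seventh by pairs of reads (77, against 135 at 45 nt). On bar the distance of 21 nt did not stand out, with 12 pairs of positions on the sense strand and 3 on the antisense strand, each equal to the median.

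Opposite-strand pairs were counted between distinct reads, since a duplex cut by a Dicer-like enzyme leaves 2 reads of opposite strands whose 3′ ends each stand 2 nt out. Among siRNA-sized reads of equal length, 24 pairs (15.4 to 35.7) had a 2 nt 3′ overhang at both ends, against a median of 15.5 pairs over the other 20 overhangs from −10 to 10 nt (range 10 to 25). A 5′ overhang of 4 nt gave 25 pairs, so that the 2 nt overhang was the second of 21. The neighbouring overhangs of 1 and 3 nt gave 10 and 16 pairs. When pairs of any 2 lengths were allowed and each end was counted, the 2 nt overhang had 110 ends (90.4 to 133) against a median of 88, the fourth of 21. Weighted by the smaller read count of each pair, the ratio to the median was 1.06, and weighted by the product of the counts 0.91, below the median. The interval of the equal-length count thus reached the median of the other overhangs. That of the ends did not, but each of the 24 equal-length pairs gave 2 of these ends. The ends are therefore not independent and their interval is too narrow to set against the median.

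Reads of 25 to 50 nt had no equal-length pair with a 2 nt overhang at both ends (0 pairs, up to 3), with 0 to 4 pairs at the other overhangs, and the shorter reads had 1 pair. Few minus-strand reads stood against the longer plus-strand ones, which limits this count. With any 2 lengths allowed, 41 ends (29.4 to 55.6) of the longer class had a 2 nt overhang against a median of 31, the fifth of 21. Weighted by the smaller count, the longer reads had a ratio of 1.44, above that of the siRNA sizes.

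**Figure D5:**
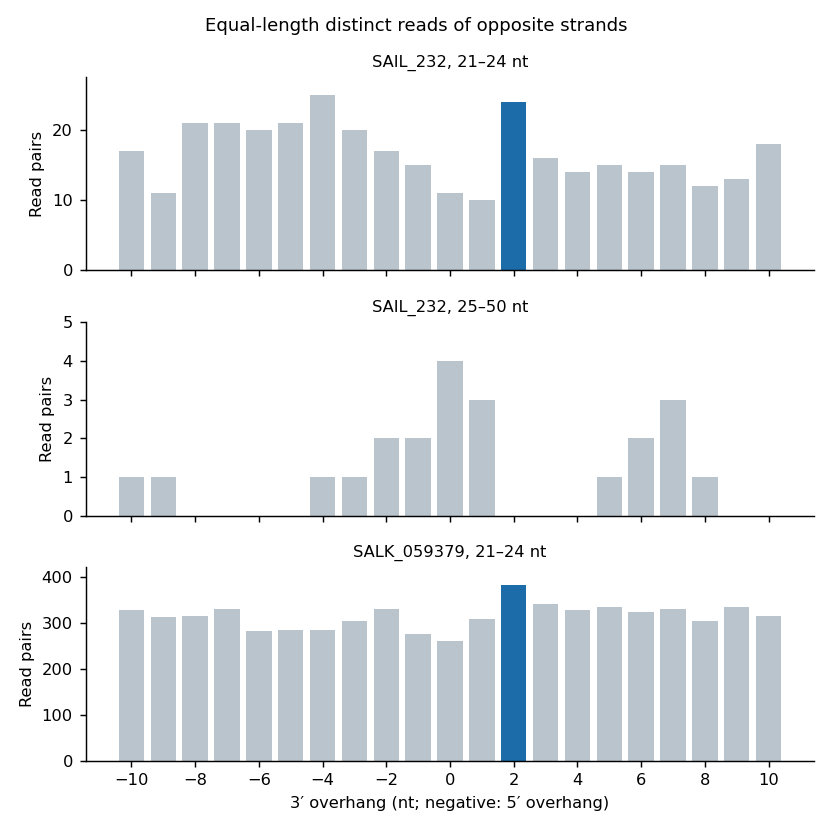
Number of pairs of distinct equal-length reads of opposite strands at each 3′ overhang from −10 to 10 nt (negative values are 5′ overhangs), for the 21–24 nt and 25–50 nt reads of SAIL_232 and the 21–24 nt reads of SALK_059379, with the 2 nt overhang coloured. The 2 nt overhang has 24 pairs in SAIL_232 siRNA sizes, 0 among longer reads and 383 in SALK_059379, and the vertical scales differ between panels.

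Most pairs with a 2 nt overhang lay in the promoter stretch, where pairs at other overhangs were also frequent (median 8.5, beside 15.5 over the whole plasmid). Of the 24 siRNA-sized pairs, 15 lay there, the highest count of any overhang in that stretch (median of the others 8.5), 5 between bar and GUS and 4 on bar (median 4). Of the siRNA-sized reads, 129 (8.15%, 6.85 to 9.61) had such a partner in the library, with 16.9% (13.7 to 20.4) in the promoter stretch and 6.81% (4.61 to 9.63) on bar. No such share was counted at the other overhangs, so these shares do not give the part of the reads made as duplexes. Weighted by the product of the counts, equal-length pairs at 2 nt came to 120, below the median of 137.5 and 13th of 21. The 5 pairs with the largest smaller count all lay in the promoter stretch and had a smaller count of 2. They were the 22 nt reads with plus strands at 300 to 321 bp (6 plus and 2 minus reads) and the 21 nt reads at 361 to 381 bp (4 and 2), 289 to 309 bp (3 and 2), 297 to 317 bp (2 and 3) and 325 to 345 bp (2 and 4). The most frequent reads were not among them: neither the 21 nt read at 312 to 332 bp (65 copies) nor the 24 nt read at 4644 to 4667 bp (63 copies) had a partner with 2 nt overhangs. The 21 nt read was overlapped by 65 siRNA-sized reads of the other strand and the 24 nt read by 12. The leading 22 nt read (minus strand, 319 to 340 bp, 8 copies) had 1 partner read and was overlapped by 168 siRNA-sized reads of the other strand. The leading 23 nt read (plus strand, 817 to 839 bp, 6 copies) crossed the first base of bar, had no partner, and lay inside 56 longer reads, whereas the 21, 22 and 24 nt reads lay inside 0, 2 and 1.

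A second spacing was examined, because Argonaute cuts a target opposite positions 10 and 11 of the siRNA, which would leave a longer sense read whose 5′ end overlaps that of the antisense siRNA by 10 nt. On bar, 23 pairs of 5′ positions of antisense siRNA-sized and sense longer reads overlapped by 10 nt, against a median of 20 and a range of 14 to 24 over overlaps of 1 to 24 nt. Over the whole plasmid the values for minus-strand siRNA-sized reads were 32 pairs against a median of 31. The 10 nt overlap was the third of 24 on bar and the sixth of 24 over the plasmid, in each case tied with other overlaps. Counted as pairs of reads it was low, and most overlaps had more. On bar it had 69 read pairs, against 33 at 11 nt (the lowest) and 383 at 24 nt (the highest). Over the plasmid it had 95, against 72 and 473 at these overlaps.

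The 5′ base differed between classes and lengths. Of the 21 nt reads, 39.5% (35.9 to 43.1) began with U, whereas U made up 25.99% of their bases 2 to 10. Of the 22 nt reads, 45.7% (39.6 to 51.9) began with U against 22.2%, and of the 24 nt reads 57.4% (52.4 to 62.3) began with A against 34.97%. With identical reads counted once, U began 29.96% (24.4 to 35.97) of the 21 nt reads against 24.1% and 40.1% (32.6 to 48.0) of the 22 nt reads against 22.2%, and A began 43.7% (36.2 to 51.4) of the 24 nt reads against 30.8%. Among the 25 to 50 nt reads, C was the most frequent first base with 35.1% (32.4 to 37.9) against 27.5%, and A and U were near their share of the other bases (23.3% against 23.3%, and 20.2% against 18.4%). The shorter reads began with G most often (36.9%, 32.3 to 41.7, against 33.9%).

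The excess of A at the start of 24 nt reads was larger in the 1000 nt upstream of GUS than on the rest of the plasmid. In that interval 153 of 187 began with A (81.8%, 75.5 to 87.1, against 42.5% of bases 2 to 10), and 90 of 124 (72.6%) without the most frequent read. On the rest of the plasmid 77 of 214 began with A (35.98%, 29.6 to 42.8, against 28.4%), also above the background. On bar, the 24 nt reads began with C most often (27 of 58), as the longer reads did (45.4%, 41.6 to 49.2, against 32.1%). The U at the start of 21 nt reads was highest in the promoter stretch, at 56.4% (51.045 to 61.7) against 35.8%, and on bar was 23.4% (18.2 to 29.2) against 12.4%. On bar, A was the more frequent first base of 21 nt reads, at 31.97% (26.2 to 38.2) against 18.4%, and with identical reads counted once it was 21.5% against 19.1%.

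The 3′ end had a common base in every class. The last base was C in 44.8% (42.3 to 47.3) of the siRNA-sized, 44.0% (41.2 to 46.9) of the longer and 51.8% (46.9 to 56.6) of the shorter reads, against 20.1%, 30.8% and 26.8% of the 9 bases before it. With identical reads counted once it was 41.7%, 43.5% and 47.1%. The last base was thus more alike among the classes than the first.

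The classes also shared read ends. Of the shorter reads, 41.4% (36.7 to 46.3) had a 5′ end that a longer read of the same strand also had, and 38.1% (33.5 to 42.9) one that an siRNA-sized read had. For 3′ ends the shares were 43.1% (38.3 to 47.9) and 50.1% (45.3 to 54.97). Of the siRNA-sized reads, 27.9% (25.7 to 30.2) shared a 5′ end with a longer read, and of the longer reads 33.6% (30.9 to 36.4) shared one with an siRNA-sized read. Of all plasmid positions on both strands, 3.76% held a 5′ end of a longer read and 4.10% one of an siRNA-sized read. Reads crowd in a few stretches, so this is too low a background for the shares above. On the sense strand of bar the longer reads used 253 of 552 positions as 5′ ends (45.8%), the share to read shared ends against. In that place 60.6% (51.6 to 69.2) of the distinct siRNA-size 5′ ends and 64.0% (53.2 to 73.9) of the distinct shorter 5′ ends coincided with one of the longer reads. In the other direction, 30.4% (24.8 to 36.5) of the longer 5′ ends coincided with an siRNA-size end, which took 23.01% of the positions.

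Bases that differ from the deposited plasmid sequence were unevenly spread over the classes. The methods state mapping without mismatches, so the sequence mapped against may differ from the deposited one, and these shares are relative to the deposited one. All bases matched in 94.1% (92.8 to 95.2) of the siRNA-sized, 82.4% (80.1 to 84.6) of the longer and 94.1% (91.4 to 96.2) of the shorter reads. A single differing base at the 3′ end was present in 49 siRNA-sized reads (3.10%, 2.299 to 4.07), 78 longer reads (6.68%, 5.32 to 8.27) and 14 shorter reads (3.29%, 1.81 to 5.47). It was a U in 27, 50 and 8 of these, and another 13 longer reads ended in a pair of U that the plasmid does not have. Among single lengths, the share with a differing last base was 1.07% at 21 nt, 5.99% at 22 nt, 10.3% at 23 nt and 2.00% at 24 nt. All 50 reads with at least 4 differing bases were longer reads, and 44 of them had their midpoint from 20 nt before to 100 nt after the end of bar, where 87 longer reads lay in all. Of the 50, 48 differed in at most 2 bases once a shift of 1 base was allowed within the read.

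The RNA-seq file of the same line was set beside these reads without a test. Its listed bases lay on the minus strand in 98.5% on bar, 85.4% on the promoter stretch, 95.3% between bar and GUS and 1.45% on GUS, and which strand of a transcript that library reports was not given in the sources used here. Both bar and GUS are encoded on the plus strand. Relative to their reading frames, most RNA-seq bases on bar and most on GUS thus lay on opposite strands. Over the 76 bins and both strands, RNA-seq bases had a Spearman correlation of 0.18 with siRNA-sized, 0.19 with longer and -0.05 with shorter reads. Taken by strand, minus-strand RNA-seq bases had a Spearman correlation of 0.53 with siRNA-sized plus-strand reads, 0.59 with longer plus-strand reads and 0.26 with shorter plus-strand reads. With minus-strand small RNA reads it was 0.31 for siRNA-sized, 0.10 for longer and 0.26 for shorter reads. RNA-seq coverage on the minus strand 550 to 301 nt before bar, in the left part of the promoter stretch, averaged 4.72 bases per position, and 205.9 in the 20 nt before bar. Within that left part the RNA-seq bases changed strand. The bin starting at 301 bp held 2030 plus-strand and 194 minus-strand bases, and that starting at 401 bp held 34 and 476.

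The 2 small RNA libraries differed in how much of each class they held. Of the SAIL_232 reads on pCSA110, 49.9% (48.1 to 51.6) had 21 to 24 nt and 36.8% (35.1 to 38.5) more, against 89.0% (88.6 to 89.4) and 6.64% (6.33 to 6.95) of the 25606 SALK_059379 reads on pROK2. The longer reads were 84.6% plus on pCSA110, against 50.97% (48.6 to 53.4) on pROK2. Equal-length siRNA-sized pairs with a 2 nt 3′ overhang stood at 1.55 times the median of the other overhangs on pCSA110 (24 pairs, second of 21), against 1.21 times on pROK2 (383 pairs, first of 21). The order of the libraries depended on the measure: with any 2 lengths the ratios were 1.25 on pCSA110 and 1.102 on pROK2, and weighted by the smaller count 1.06 and 1.17. Each line has 1 library on another plasmid, so line, plasmid and library cannot be told apart.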

How the data were processed

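Small RNA was extracted from rosette leaves, cut from a gel and sequenced on a pair of lanes, which the deposited table holds together. After adapter trimming, the authors aligned reads against the plasmid sequence (Bowtie2, Geneious aligner), per their methods without mismatches, and checked the mapped reads against TAIR10 for off-target reads. The submitters' processing notes name Bowtie2 2.3.0, Bowtie 0.12.7 and FastQC. The deposited table, per the file headers, gives strand, start, end and bases of each read, with start and end in other units than counts (positions on pCSA110). Read counts were made here by counting entries, without normalization, and all 3175 reads were kept, although 324 differ from the plasmid in at least 1 base. Reads of both strands are written in plus-strand orientation (805 of 892 minus reads equal the plus strand, 0 the minus strand), so the strand column was used. Borders were located by their repeats and coding regions by reading frames. Reads were assigned to elements by midpoint. Reads were searched for exact matches in TAIR10.1, which 19 had. The counting functions were tested on simulated data. Python 3.11.15 with pandas 2.3.3, numpy 2.4.6 and scipy 1.17.1 was used. Depth was 3175 plasmid-mapped reads, 1 library per line gave no test between lines, and no p-value was computed. Named in the text are every element, the 5 most frequent ends of each class, the most frequent read of each length from 21 to 24 nt and the 5 leading pairs. Members, intervals and measures were chosen with earlier results of these data known. The other samples of the 39 are not analysed here, apart from the second small RNA library and the RNA-seq of SAIL_232.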

Additional observations from a re-analysis of the deposited data

How the results depend on the processing

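Each of 17 values was recomputed under the alternatives, 106 values in all, of which 86 stayed within the counting interval of the value reported, 20 moved outside it and 0 changed sign. No paired analysis was possible because the line has 1 library, and for the same reason no replicate could be left out. With exact matches only, the siRNA sizes were 52.2% and the longer reads 33.7% of the library, and bar held 64.1% of the longer reads. With identical reads counted once, these classes were 38.4% and 45.8% of the library, their 10 most frequent 5′ ends held 3.96% and 6.77% of the reads, A led its background at the first base of 24 nt reads by 12.9 percentage points in place of 22.4, U that of 21 nt reads by 5.84 in place of 13.5, and the shared 5′ ends of the shorter reads were 33.7% (longer reads) and 33.3% (siRNA sizes). The order of the first 2 pairs of values thus turned, that of the second because the siRNA sizes allow fewer lengths per 5′ end. With an upper class of 28 to 50 nt, the longer reads were 29.2% of the library. Without the most frequent 5′ end of each class, the 10 leading siRNA-size ends held 17.2%, and the lead of U in 21 nt reads was 9.49 points. Counting pairs of equal length only, the ratio at the 2 nt overhang was 1.55 for the siRNA sizes in place of 1.25, and 0 for the longer reads in place of 1.32. Reads wholly inside bar were 51.2% of the longer reads. In alternatives chosen after seeing the data, equal lengths weighted by the smaller count gave 0 for the longer reads, and without the most frequent 24 nt read 63.5% of the siRNA-sized reads were plus and their 10 leading 5′ ends held 17.4%. The causes were not tested, beyond what each alternative removes. Depth limits the pair counts, the elements with few reads and the antisense longer reads on bar (18 reads).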

Other observations

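In the part of the promoter stretch next to the left border (270 to 548 bp), longer reads of the minus strand numbered 38 and of the plus strand 30, while all but 1 of the 35 shorter reads there were plus. The elements differed in which siRNA length led: 24 nt reads were 187 of the 313 siRNA-sized reads in the 1000 nt upstream of GUS and 28 of 60 between GUS and the right border, whereas 21 nt reads were 351 of 509 in the promoter stretch and 244 of 426 on bar.

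Exact copies of reads in the TAIR10.1 genome were found for 7 siRNA-sized, 0 longer and 12 shorter reads, and 17 of these 19 lay between bar and GUS.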
